A study of Mus musculus with 12 samples.

Results

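The comparison described here is that of mesenchymal stem cells (MSCs) cultured across a transwell membrane from LPS-treated RAW264.7 macrophages with MSCs cultured in the same way beside untreated RAW264.7 macrophages. Its members were chosen from the column names of the deposited MSC count table, and they are 4 of the 12 samples of the series, 2 labelled MSC+RAW-TW and 2 labelled MSC+RAW-LPS-TW. All genes of the table were members, and 20499 of 55487 had enough counts to be tested. The MSCs came from the marrow of the tibia and femur of C57BL/6 mice (tissue label limbs, 8 weeks of age) and were used at passage 3. TW stands for the transwell, whose 0.4 µm pores let fluid and small particles through but keep cells apart, and RAW264.7 is an established mouse macrophage line. LPS (lipopolysaccharide) is an outer-membrane component of Gram-negative bacteria, and it was given to the RAW264.7 cells of 1 of the 2 groups. Both groups shared the transwell and the presence of macrophages, and 2 libraries labelled MSC, for which no macrophages are named, are given beside them for comparison. Other assays of the study used 24 h of culture in the transwell, whereas the LPS dose, any wash and the culture time of the sequenced cells are not given in the sources used here. The labels do not say whether libraries of a group came from separate animals or cultures, so p-values measure only the spread between libraries, which may be technical. The comparison addresses how the transcripts of MSCs differ when the neighbouring macrophages have met LPS.

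LPS is sensed by TLR4, which carries the co-receptor MD-2 (Ly96) and receives LPS from CD14. TLR4 signals through the adaptor MyD88 to the transcription factor NF-κB, which turns on cytokine and chemokine genes together with its own inhibitors, and through the adaptor TRIF to interferon regulatory factors. Macrophages are the textbook responders, and stromal cells of the marrow also respond to LPS and to the IL-1 and TNF that macrophages release. MSCs are the marrow cells that form bone, fat and cartilage, and they are recognised by surface proteins such as CD44, CD73 (Nt5e) and Sca-1 (Ly6a) and by the absence of CD45 (Ptprc).

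The libraries beside LPS-treated macrophages carried many inflammatory transcripts at levels far above those beside untreated macrophages. Interleukin and colony-stimulating factor genes were among the largest rises, and the mannose receptor and the lipid receptor Trem2 were among the largest falls. A gene was called when edgeR's quasi-likelihood test gave a change of 2-fold or more and a p, adjusted by the Benjamini-Hochberg method, not above 0.05, and 5624 of 20499 genes (27.4%) were called. Of these, 3166 (15.4% of those tested) were higher and 2458 (12%) were lower beside LPS-treated macrophages. Without a limit on fold or adjustment, 10106 genes reached an unadjusted p of at most 0.05, and the median log2 fold change of all tested genes was 0.14. Levels are given below as CPM, counts per 1000000 of the library total, after trimmed-mean scaling of the totals, log2 fold changes are LPS-treated against untreated macrophages, and ± is the standard error of the fit.

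The sample titles number the libraries of each group 1 and 2, whereas the columns are named MR-1, MR-1, MRL-2 and MRL-3, so a column could not be tied to a title. The 2 MSC+RAW-TW libraries are called MR-1a and MR-1b here, and the MSC+RAW-LPS-TW libraries are called MRL-2 and MRL-3 after their columns. MR-1a and MR-1b were close to copies of each other. For genes with high counts their median absolute log2 difference was 0.037, against 0.19 between MRL-2 and MRL-3 and 0.11 between the MSC libraries, so they were summed and counted as 1 sample. The spread in the fit therefore comes from the MSC pair and the MRL pair. Totals were 45367105 and 38158829 counts in MR-1a and MR-1b, 33566340 and 33228769 in MRL-2 and MRL-3 and 43122563 and 29823130 in the MSC libraries. A share of 71.4% and 71.0% of counts from 1 to 20 were even numbers in MR-1a and MR-1b, and the share was 60.0% to 71.4% over the 12 libraries, so counting intervals, which take each count as an independent read, may be too narrow.

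MR-1a and MR-1b stood apart from the other 4 MSC libraries in several measures. They held a count for 19751 and 19657 genes, against 22068 to 24876 in the other 4, although they were among the deepest. Mitochondrial transcripts took 0.165% and 0.160% of their counts, against 0.533% to 0.746% elsewhere, and ribosomal RNA 1.93% and 1.91%, against 4.14% to 8.03%. Their levels also followed GC content. Among protein-coding genes, 35.1% of the decile with the lowest GC were called higher beside LPS-treated macrophages and 3.61% lower, whereas in the decile with the highest GC 5.42% were higher and 24.6% lower. Their summed level, centred per gene over the libraries, ran from -0.47 to 0.40 on the log2 scale from the lowest to the highest GC decile. The other 4 libraries stayed within -0.16 and 0.20 in every GC decile. With smooth trends over GC content and transcript length removed from the fit, an alternative chosen after the data were seen, 2554 genes (12.5%) were called higher and 2010 (9.81%) lower. Of the genes called, 3695 were called in both fits in the same direction, 2172 higher and 1523 lower. The value with the trends removed is given below where it moved the call of a gene described or a list's count by more than 1.5 times.

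**Figure D1:**
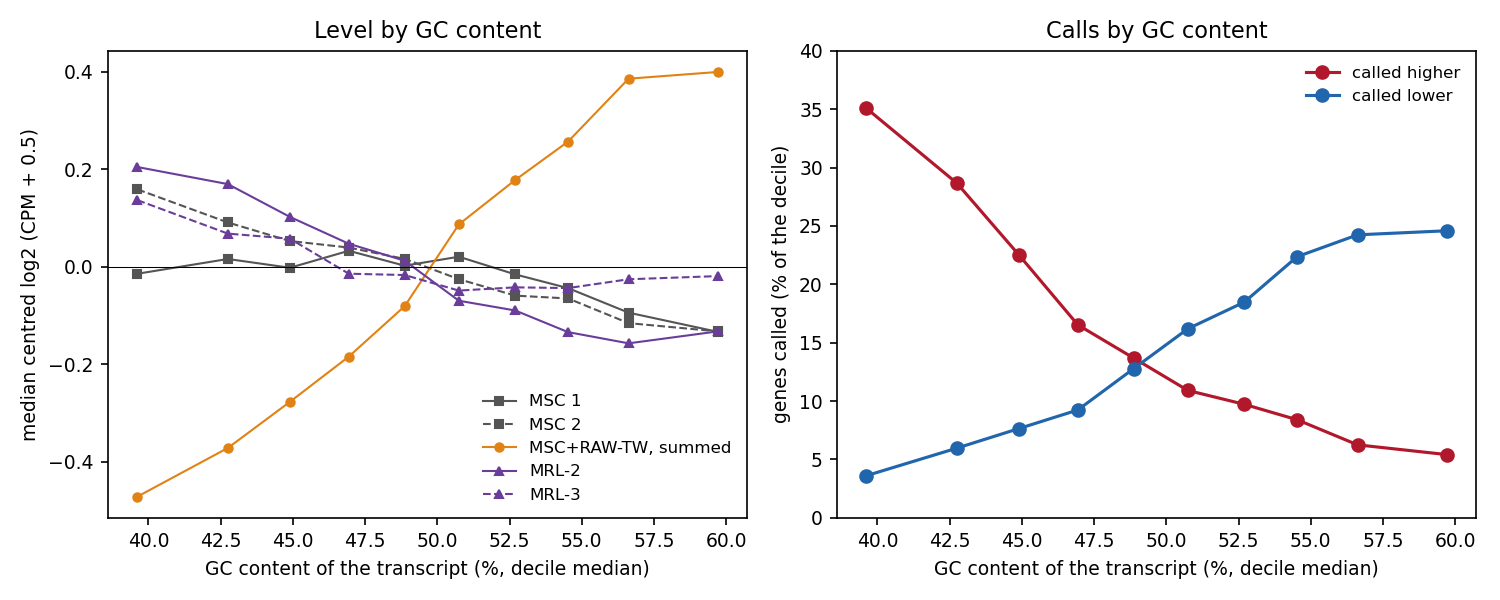
Protein-coding genes in 10 bins of GC content. The left panel gives the median level in 5 samples (the 2 MSC libraries, the summed MSC+RAW-TW sample, MRL-2 and MRL-3) as log2 (CPM + 0.5) centred per gene, where the summed sample runs from -0.47 to 0.40 and the others stay close to 0, and the right panel gives the share of genes called, which goes from 35.1% higher and 3.61% lower in the lowest bin to 5.42% higher and 24.6% lower in the highest.

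Against the label, the libraries named MSC held macrophage transcripts at high levels in all 3 conditions. All 20 macrophage markers reached 1 CPM in each of the 6 MSC libraries. Their summed level, here without trimmed-mean scaling, was 39039 to 39786 CPM in the libraries labelled MSC, 40109 to 40225 CPM in MSC+RAW-TW and 17834 to 17844 CPM in MSC+RAW-LPS-TW, against 52607 to 64169 CPM in the bone marrow macrophage libraries of the same series. The 16 stromal markers summed to 6551 to 8217 CPM in the 6 MSC libraries, less than the 14311 to 19878 CPM in the macrophage libraries. Without scaling, the 13 genes of the MSC surface list summed to 1854 to 2089 CPM in the 6 MSC libraries. They summed to 1286 to 1936 CPM in the macrophage libraries. After scaling, Thy1 of that list lay at or below 2.25 CPM in every MSC library, and the leukocyte gene Ptprc at 93.3 to 231 CPM. Of its other members Itgb1 lay at 798 to 1006 CPM, Cd44 at 131 to 324 CPM, Ly6a at 118 to 543 CPM and Nt5e at 6.98 to 55.8 CPM. Xist, which is transcribed from the inactive X chromosome, had 0 to 27 counts in the MSC libraries, and Y-linked Ddx3y lay at 30.9 to 75.7 CPM there, without scaling, and at 0 in the macrophage libraries, although the methods name female mice. The transcripts described below are therefore those of the cells in these libraries, and in bulk RNA fewer cells of a type and less RNA per cell cannot be told apart.

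**Figure D2:**
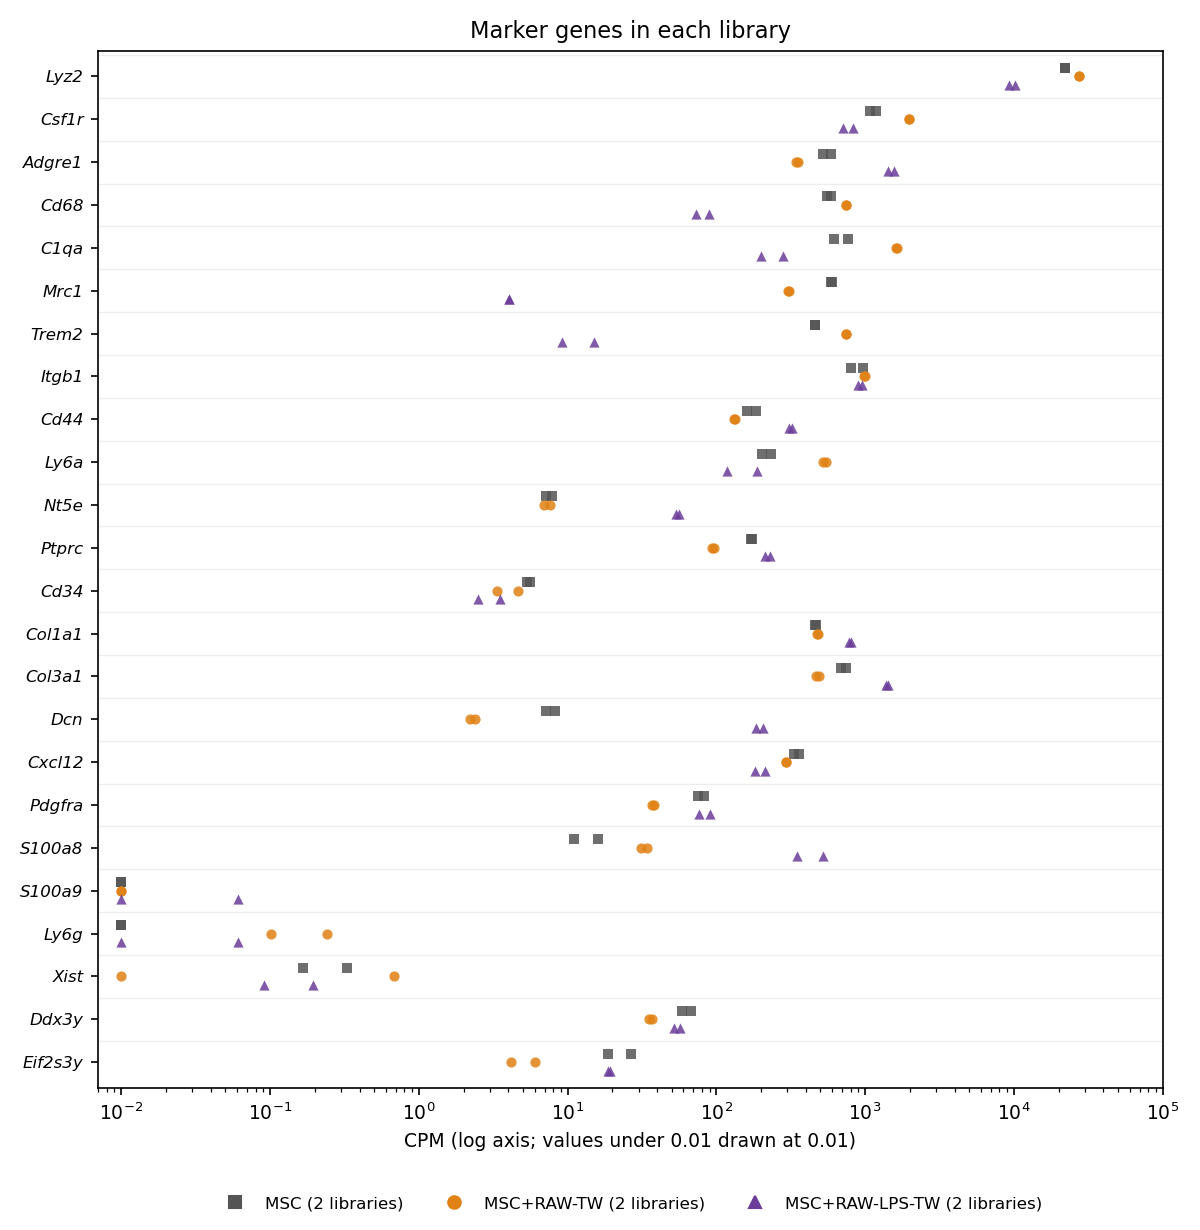
Level of marker genes of macrophages, MSC surface proteins, stromal cells and neutrophils, and of X- and Y-linked genes, in each of the 6 MSC libraries, in scaled CPM on a log axis, with values under 0.01 drawn at the left edge. Macrophage genes such as Lyz2 and Csf1r lie far to the right in all 3 groups, Mrc1 and Trem2 lie far lower in MSC+RAW-LPS-TW than in the other groups, and Dcn and Nt5e lie higher there.

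Genes were named by fixed rules: the 12 largest rises and falls among called protein-coding genes whose mean level was 5 CPM or more, the 10 largest gains and losses in CPM, and listed genes of inflammation, metabolism and bone, 182 in all. Of these 175 were tested and 121 called. Counts of list members called higher or lower below stand beside 15.4% and 12% of all tested genes. Genes given with their values outside these rules were chosen after their values were seen, and they are Ackr3, Adamts4, Adipoq, Ass1, Bglap, Bmp4, Bnip3, C1qb, C1qc, Camp, Car9, Casp1, Ccl12, Ccl20, Ccl24, Ccl4, Ccl6, Ccl8, Ccr1, Ccr3, Ccrl2, Cd163, Cd38, Cd86, Cfb, Chil3, Chuk, Clec10a, Col6a1, Col6a2, Col6a3, Csf1, Csf2ra, Csf2rb, Csf2rb2, Csf3r, Cxcl11, Cxcl13, Cxcl14, Cxcl2, Cxcl5, Cxcl9, Cxcr3, Cyba, Ddah2, Ddx58, Elane, F13a1, Fh1, Gbp2, Gbp3, Gpx1, H2-DMa, H2-DMb1, H2-Eb1, Hp, Hpgds, Ibsp, Idh3b, Idh3g, Ifih1, Il11, Il15, Il18, Il19, Il23a, Il27, Il33, Il34, Itgam, Lif, Lta, Ltb, Ltf, Lum, Ly96, Mdh1, Mmp9, Mpo, Myd88, Ndufs7, Nfkb1, Nlrc4, Nox4, Oas1a, Oas1g, Osm, Pgk1, Pla2g4a, Prdx5, Ptger2, Pycard, Rel, Retnla, Retnlg, Slc16a1, Slc25a10, Slpi, Socs1, Sod1, Spi1, Stab1, Stat4, Steap4, Suclg1, Sucnr1, Tbxas1, Tgfb1, Thy1, Timp2, Timp3, Tnfrsf1a, Tnfrsf1b, Tnip1, Tnip3, Txn1, Vcam1 and Zc3h12a.

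The largest rises were led by genes with no count or few counts beside untreated macrophages. Csf2 (ENSMUSG00000018916, GRCm38 chr11:54247271-54249667), which encodes the growth factor GM-CSF, had no count in MR-1a or MR-1b and 47.1 and 45.8 CPM in MRL-2 and MRL-3, at least 1131-fold higher when the floor is set at 3 counts over the 2 libraries. On the same floor Shisa3 (at 35.1 and 39.3 CPM in MRL-2 and MRL-3), the IL-12 subunit gene Il12a (32.9 and 37.6 CPM), the IL-13 decoy receptor Il13ra2 (27.8 and 23.9 CPM) and the CD30 gene Tnfrsf8 (10.2 and 10.1 CPM) were at least 905-, 859-, 630.2- and 247-fold higher. Vnn3 and Stfa3 had 1 to 3 counts in MR-1a and MR-1b together, and their ratios were 606 (95% counting interval 168 to 5006) and 569 (158 to 4699). The floor and the intervals cover counting error only. In the libraries labelled MSC Csf2 lay at 0.0207 and 0.0597 CPM and Il12a at 0 and 0.0597 CPM, close to the level beside untreated macrophages.

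The largest falls included surface receptors of tissue macrophages. Mrc1 (ENSMUSG00000026712, GRCm38 chr2:14229392-14332057), the mannose receptor CD206, fell from 307 and 306 CPM in MR-1a and MR-1b to 4.06 and 4.07 CPM in MRL-2 and MRL-3, log2 fold change -6.24 ± 0.20, adjusted p 3.17e-11. Trem2, a lipid-sensing receptor of macrophages, fell from 739.9 and 750.1 CPM to 9.15 and 15.1 CPM, log2 fold change -5.94 ± 0.25, adjusted p 2.53e-10. Fcrls, an Fc receptor-like gene of tissue macrophages, fell from 3791 and 3711 to 109 and 137 CPM, log2 fold change -4.94 ± 0.21, adjusted p 2.53e-10. The groups did not overlap for any of these genes, which by itself says little, since 78.2% of all tested genes did not overlap. The libraries labelled MSC lay on the side of the untreated group, at 593 and 603 CPM for Mrc1, 463 and 459 CPM for Trem2 and 1676 and 1437 CPM for Fcrls. Slco2b1, an organic anion transporter, had 11.0 and 11.4 CPM in MR-1a and MR-1b and no count in MRL-2 or MRL-3, at least 238-fold lower. The remaining large falls were Car3 (log2 fold change -8.79), Tox2 (-7.15), Nxpe5 (-6.16), the galactose-type lectin Mgl2 (-6.09), Cd5l (-5.77), Pcp4l1 (-5.44), the phosphatase gene Ptpn18 (-5.34) and Syngr1 (-5.01).

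**Figure D3:**
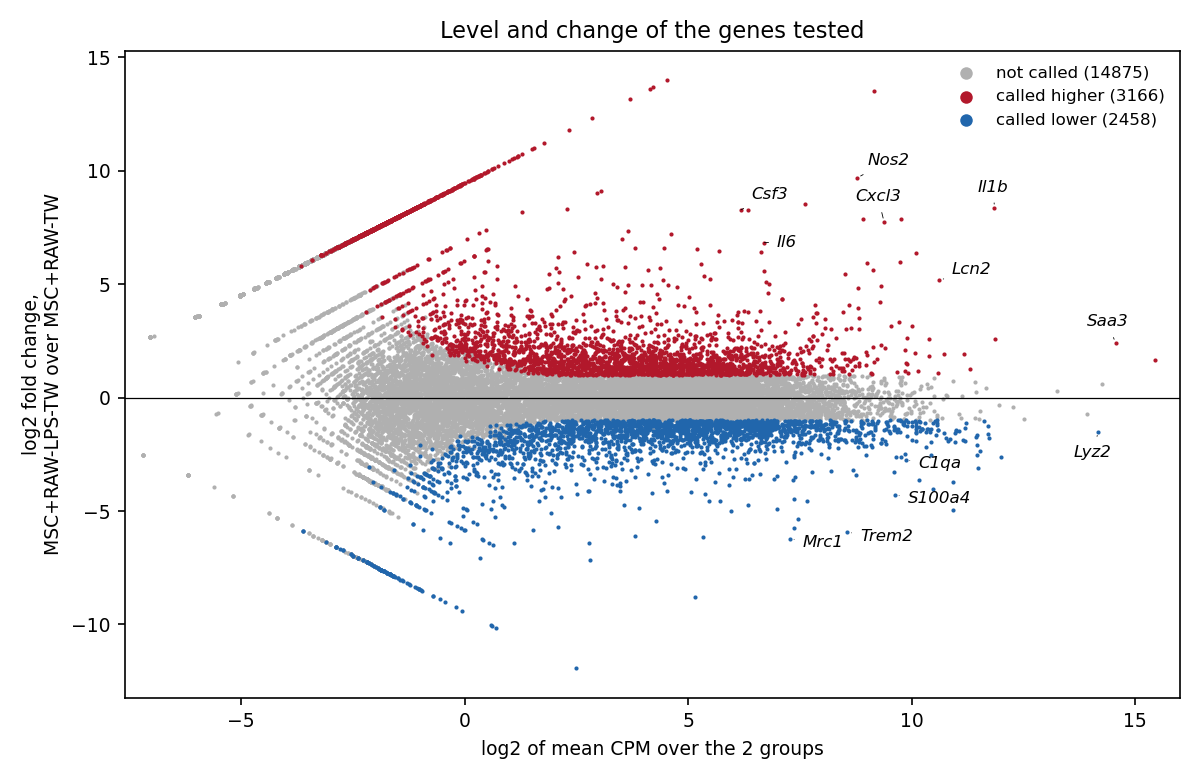
Each point is a tested gene, with the log2 of the mean CPM over the 2 groups on the horizontal axis and the log2 fold change, MSC+RAW-LPS-TW over MSC+RAW-TW, on the vertical axis. The 3166 genes called higher and 2458 called lower are coloured, some genes of either direction are written beside their points, and the straight diagonal rows at the outer edges are genes with no count in 1 of the groups, whose fitted fold is set by the prior count.

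By amount of RNA rather than by fold, the acute-phase gene Saa3 gained most, from 7739 and 7745 CPM to 34650.2 and 46894 CPM (log2 fold change 2.40 ± 0.23, adjusted p 1.52e-06), with 3509 and 3496 CPM in the libraries labelled MSC. Other large gains were those of Il1b, of Lcn2 (iron-binding lipocalin), of Mmp3 (stromelysin), of Spp1 (osteopontin), of Timp1, of U90926 (7.61 and 7.4 to 1528 and 1949 CPM) and of Lars2 (993 and 961 to 4669.9 and 2653 CPM). Lars2 contains a stretch derived from ribosomal RNA, and ribosomal RNA also differed between these libraries, so its level is uncertain. The libraries labelled MSC held 3438 and 3114 CPM of Lars2, more than MRL-3. Fth1 and Tmsb4x gained CPM but were not called (log2 fold changes 0.60 and 0.29). Lysozyme (Lyz2) lost most, from 27484 and 27364 to 9301 and 10139.9 CPM (log2 fold change -1.50 ± 0.18, adjusted p 9.95e-06). Among the 10 largest losses, those called beside Lyz2 and Fcrls had log2 fold changes of -2.62 for the lipid carrier gene Apoe, -3.10 for Lgals3 (galectin-3), -2.53 for the lysosomal protease gene Ctsd, -2.33 for S100a6, -1.80 for the ribosomal protein gene Rps3 and -2.07 for Grn (progranulin), while Actb (-0.72) and Ifitm3 (-0.97) were not called. Without MRL-3, Ifitm3 passed at -1.34. Rps3 lay at 1211 and 1817 CPM in MRL-2 and MRL-3 and at 1843 and 1623 CPM in the libraries labelled MSC.

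Of 20 tested members of the interleukin and TNF list 12 rose and 0 fell (15.4% and 12% of all tested genes did so), 1 fell without MRL-3, and the median log2 fold change was 2.08 against 0.14 over all genes. Il1b (ENSMUSG00000027398, GRCm38 chr2:129364570-129371139), the secreted IL-1β, rose from 22.4 and 23.2 CPM in MR-1a and MR-1b to 6499 and 8270.2 CPM in MRL-2 and MRL-3, log2 fold change 8.34 ± 0.32, adjusted p 1.16e-10. Its neighbour on the chromosome Il1a, IL-1α, rose from 0.176 and 0 to 995 and 1292 CPM (log2 fold change 13.50 ± 0.42, adjusted p 3.17e-11). The libraries labelled MSC held 19.2 and 16.1 CPM of Il1b and 0.975 and 0.925 CPM of Il1a. Il1rn, the IL-1 receptor antagonist, lay at 519.9 and 534 CPM beside untreated and 591 and 567 CPM beside LPS-treated macrophages and was not called (log2 fold change 0.14 ± 0.18, adjusted p 0.57).

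Il6, the main inducer of the acute-phase response, rose from 1.76 and 1.89 to 219.7 and 195 CPM (log2 fold change 6.83 ± 0.28, adjusted p 2.53e-10). Il10, an anti-inflammatory cytokine, rose from 11.5 and 12 to 79.6 and 86.8 CPM (log2 fold change 2.83 ± 0.23, adjusted p 3.26e-07). Both genes were at or below 8.17 CPM in the libraries labelled MSC. No library of 1 group overlapped the other, as was the case for 78.2% of all tested genes. Of the IL-12 family, Il12b had no count beside untreated macrophages and 3.81 and 4.10 CPM beside LPS-treated ones (at least 96.3-fold higher), Il27 rose with a log2 fold change of 3.26 ± 0.48, and Il23a was not called (0.756 and 1.17 and 0.671 and 0.904 CPM). Il11 and Lif, cytokines of the IL-6 family that act on bone cells, rose with log2 fold changes of 4.33 ± 0.43 and 5.02 ± 0.25, and Osm, of the same family, with 1.34 ± 0.30. Il19 had no count beside untreated macrophages and was at least 111-fold higher. Tnf was already present beside untreated macrophages and rose less, from 183 and 194 to 354 and 422 CPM (log2 fold change 1.04 ± 0.20, adjusted p 6.13e-04). Without MRL-3 its log2 fold change was 0.92, under the 2-fold limit. The members that were tested and not called were Il15, Il18, Il33, Lta, Ltb, Tgfb1, Il1rn and Il23a.

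**Figure D4:**
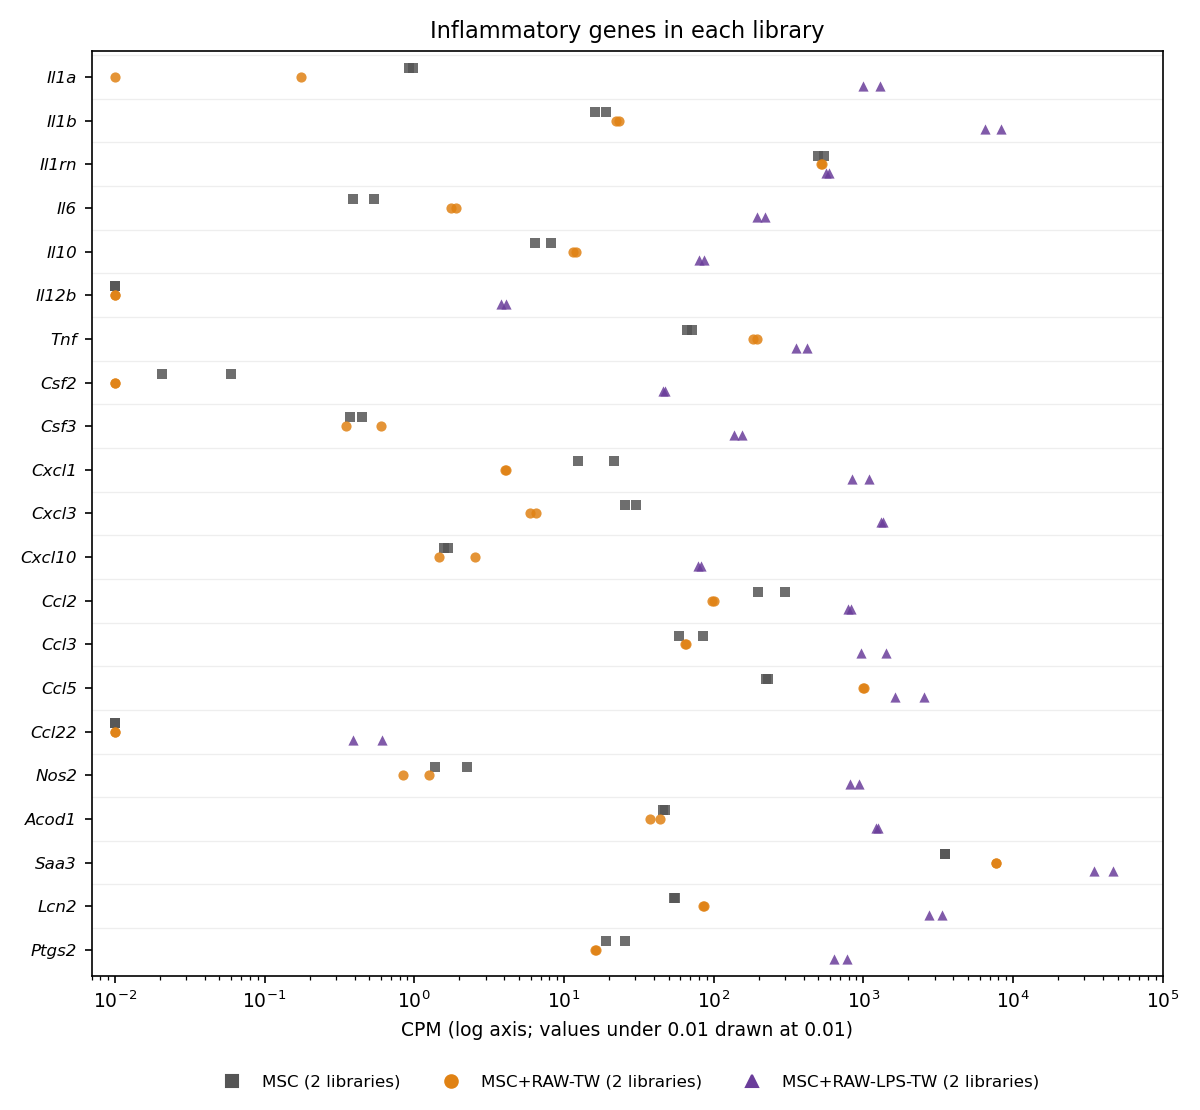
Level in each of the 6 MSC libraries of inflammatory genes, in CPM on a log axis, grouped by condition. For Il1b the points lie at 16.1 to 23.2 CPM in the 4 libraries without LPS and at 6499 and 8270.2 CPM in MSC+RAW-LPS-TW, and values under 0.01 CPM, those with no count, are drawn at the left edge.

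Colony-stimulating factors and their receptors moved in both directions. Csf3, the granulocyte growth factor G-CSF, rose from 0.353 and 0.599 to 136 and 154 CPM (log2 fold change 8.27 ± 0.31, adjusted p 1.13e-10), beside the rise of Csf2 given above. Csf1, the macrophage growth factor, lay at 474 and 480.1 CPM beside untreated and 899 and 809 CPM beside LPS-treated macrophages, log2 fold change 0.84 ± 0.19, adjusted p 0.00252, and passed the 2-fold limit with the GC and length trends removed (1.15). Il34, the second ligand of the CSF1 receptor, fell from 18.1 and 14.2 to 5.52 and 6.20 CPM (log2 fold change -1.48 ± 0.28, adjusted p 5.87e-04), a call that was lost with the trends removed (adjusted p 0.0212, log2 fold change -0.87). Csf1r, the receptor itself, fell from 1986 and 1987 to 705 and 831 CPM (log2 fold change -1.37 ± 0.18, adjusted p 3.33e-05). The receptor chains Csf2rb and Csf3r rose with log2 fold changes of 1.05 and 1.44, and Csf2ra and Csf2rb2 were not called. In all, 4 of 9 tested members rose and 2 fell, and with the trends removed 5 rose and 1 fell.

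CXC chemokines, which mainly draw neutrophils and lymphocytes, had the highest median of the pathway lists with more than 1 tested gene. Of 11 tested, 9 rose and 0 fell, and the median log2 fold change was 5.36. Cxcl1 rose from 4.03 and 4.11 to 1087 and 836 CPM (log2 fold change 7.88 ± 0.40, adjusted p 1.57e-09), Cxcl2 from 16.6 and 15.8 to 910.0 and 1096 CPM and Cxcl3 from 6.55 and 5.93 to 1354 and 1309.8 CPM. These neutrophil chemokines did not overlap between the groups, as was the case for 78.2% of all tested genes. The 3 genes lie together on chromosome 5, and their promoters share the binding letters of NF-κB. The 100 bases before the start of each are shown because they hold the same 11-base stretch, with Il6, another strong riser on the same chromosome, beside them. Sequences are from RefSeq (GRCm38.p6), read 5′ to 3′ on the plus strand, and capitals mark the κB match. They are chr5:90891145-90891244 for Cxcl1, chr5:90903799-90903898 for Cxcl2, chr5:90786001-90786100 for Cxcl3 and chr5:30013014-30013113 for Il6.
Cxcl1: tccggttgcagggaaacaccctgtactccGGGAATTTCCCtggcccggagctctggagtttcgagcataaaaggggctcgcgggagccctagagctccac
Cxcl2: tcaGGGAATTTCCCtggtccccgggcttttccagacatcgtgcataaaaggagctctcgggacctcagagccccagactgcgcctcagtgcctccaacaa
Cxcl3: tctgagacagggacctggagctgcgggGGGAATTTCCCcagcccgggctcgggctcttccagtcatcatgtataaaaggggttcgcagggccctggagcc
Il6: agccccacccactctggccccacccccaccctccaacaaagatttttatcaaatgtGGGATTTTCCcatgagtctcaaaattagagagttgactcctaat

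The κB consensus, searched on both strands, begins at -71 in Cxcl1, -97 in Cxcl2 and -73 in Cxcl3, counted from the annotated start. The shared stretch counts as 2 overlapping matches, 1 on each strand. It begins at -44 in Il6. Such matches are common. Over the 250 bases before the start, 8.78% of 12220 tested genes with a promoter in the table held 1, against 9.71% of the genes called higher, 7.76% of those called lower and 8.46% and 6.90% of those called at least 16-fold higher and lower. Among the other CXC genes with a promoter in the table Cxcl10 held 3 matches, while Cxcl9 and Cxcl13, which also rose, Cxcl14, which rose least, and Cxcl12, which was not called, held none. The core of the interferon-stimulated response element was found before 4.18% of the genes called higher, 2.74% of those called lower and 2.76% of all. The AP-1 letters TGANTCA stood before 5.79%, 5.36% and 4.93%, and the C/EBP letters TTGCNNAA before 8.69%, 7.87% and 7.86%. Before genes called at least 16-fold higher and lower, the shares were 3.02% and 2.59% for the interferon element, 8.76% and 7.76% for AP-1 and 10.9% and 11.2% for C/EBP, and the median GC content of these windows was 53.2% and 52.6%, against 58.8% over all. A match is a description of the letters and does not show that a factor binds.

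Cxcl5 (log2 fold change 5.62 ± 0.39) and the interferon-induced T-cell chemokines Cxcl9 (3.61 ± 0.30) and Cxcl10 (5.36 ± 0.26) rose as well. Cxcl10 went from 1.46 and 2.55 CPM in MR-1a and MR-1b to 78.3 and 82.4 CPM in MRL-2 and MRL-3, with 1.68 and 1.58 CPM in the libraries labelled MSC. Cxcl11, of the same group, had no count beside untreated macrophages and was at least 58.0-fold higher. Cxcl13, a B-cell chemokine, and Cxcl14 rose with log2 fold changes of 3.32 and 1.21. Cxcl12, the stromal chemokine that holds blood stem cells in the marrow, did not pass the test. It lay at 294 and 292 CPM beside untreated and 182 and 213 CPM beside LPS-treated macrophages, log2 fold change -0.57 ± 0.18, adjusted p 0.021, and its receptor gene Cxcr4 fell from 16.2 and 15.9 to 0.976 and 1.55 CPM (log2 fold change -3.67 ± 0.27, adjusted p 8.36e-08).

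CC chemokines changed in both directions. Of 13 tested 7 rose and 4 fell. Ccl2, the monocyte chemokine MCP-1, rose from 97.8 and 100.3 to 787 and 825 CPM (log2 fold change 3.03 ± 0.26, adjusted p 5.25e-07). Ccl3 and Ccl4, which encode the macrophage inflammatory proteins, rose with log2 fold changes of 4.21 ± 0.31 and 3.47 ± 0.25, and Ccl20 with 6.21 ± 0.81, from 0.151 and 0.0599 to 5.28 and 11.4 CPM. Ccl5 rose from 1002 and 1005 to 1632 and 2564 CPM (log2 fold change 1.06 ± 0.24, adjusted p 0.00259), with its log2 fold change at 0.71 without MRL-3. The members that fell were Ccl6 (-1.45), Ccl8 (-3.50), Ccl12 (-1.59) and Ccl24 (-4.70), so that Ccl8, at 117 and 121 CPM beside untreated macrophages, reached 10.1 and 10.8 CPM. Ccl22 had no count beside untreated macrophages and 0.610 and 0.388 CPM beside LPS-treated ones, and was not called (adjusted p 0.0653). It was called with DESeq2 (adjusted p 0.03) and with only the 2 groups in the fit (0.0321), and the adjusted p of edgeR with both MSC+RAW-TW libraries as replicates was 0.00884, and 0.0159 with a block added.

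Among chemokine receptors 3 of 9 tested rose and 4 fell, against 15.4% and 12% of all tested genes, with a median log2 fold change of -0.95. Ccr2, the receptor of Ccl2, fell from 19.3 and 23.0 to 1.10 and 1.71 CPM (log2 fold change -3.90 ± 0.27, adjusted p 4.53e-08). Ccr3 and Cxcr3 fell with log2 fold changes of -1.89 and -2.94, beside Cxcr4. Ccrl2, an atypical receptor that binds chemerin, rose from 12.8 and 10.4 to 57.1 and 71.9 CPM. Ackr3, a scavenger of Cxcl12, had 1 count in MR-1a and MR-1b together and 2.41 and 2.58 CPM in MRL-2 and MRL-3, a ratio of 182 (95% counting interval 32.7 to 7201). Ccr1 rose (1.38), a call lost with the GC and length trends removed (0.65).

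The LPS receptor complex itself moved in mixed ways. Tlr4 lay at 31.0 and 31.8 CPM beside untreated and 16.4 and 15.6 CPM beside LPS-treated macrophages, log2 fold change -0.97 ± 0.21, adjusted p 0.00161, just inside the 2-fold limit, and was called lower with the trends removed (-1.82). Ly96 rose from 1.76 and 2.01 to 5.73 and 6.27 CPM (log2 fold change 1.68 ± 0.45, adjusted p 0.00713). Cd14 rose from 514 and 512 to 1438 and 779 CPM (log2 fold change 1.11 ± 0.28, adjusted p 0.00571), but MRL-3 lay close to the 662 and 778 CPM of the libraries labelled MSC, and without MRL-2 the log2 fold change was 0.61. Irak3, which encodes the brake IRAK-M on Toll-like receptor signalling, rose from 68.0 and 70.6 to 327 and 335 CPM (log2 fold change 2.26 ± 0.20, adjusted p 5.98e-07). Myd88 lay at 84.2 and 80.7 and 91.5 and 90.5 CPM and was not called. Of the 16 genes of recognition and adaptors tested, 5 rose and 0 fell, and with the trends removed 4 rose and 1, Tlr4, fell.

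NF-κB subunits and the inhibitors that NF-κB itself induces were next in the pathway. Of 20 genes tested 11 rose and 0 fell. Tnfaip3, which encodes the ubiquitin-editing brake A20, rose from 12 and 13.6 to 279.5 and 241 CPM (log2 fold change 4.35 ± 0.24, adjusted p 3.53e-09). Nfkbiz, which encodes the nuclear IκBζ that promotes Il6 and Lcn2 transcription, rose from 31.3 and 35.2 to 423 and 456 CPM (log2 fold change 3.73 ± 0.23, adjusted p 1.27e-08). Nfkbia, the classical inhibitor IκBα, rose from 194 and 199.8 to 874 and 983 CPM (log2 fold change 2.24 ± 0.21, adjusted p 1.19e-06). Zc3h12a, an RNase that degrades cytokine mRNAs, Tnip1 and Tnip3 rose with log2 fold changes of 1.90, 1.71 and 1.89. Among the subunits Rel (2.63), Nfkb1 (1.67) and Nfkb2 (1.36) rose, whereas Rela (-0.19) and Relb (0.41) were not called. Tnip3 and Chuk lost their calls with the trends removed (0.89 and 0.98).

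Socs1 and Socs3, feedback inhibitors of cytokine signalling, rose. Socs3 rose from 41.9 and 44.4 to 429.7 and 421 CPM (log2 fold change 3.30 ± 0.21, adjusted p 1.86e-08) and Socs1 from 12.8 and 12.3 to 130.5 and 124 CPM (log2 fold change 3.34 ± 0.24, adjusted p 5.66e-08). Jak2, the kinase of many cytokine receptors, rose from 35.4 and 35.2 to 425 and 392 CPM (log2 fold change 3.53 ± 0.22, adjusted p 1.33e-08), and Stat4 rose from 0.0504 and 0.0599 to 1.37 and 1.00 CPM. Stat3 was not called (log2 fold change 0.36). In this list of STAT and SOCS genes 4 of 15 tested rose and 0 fell, against 15.4% and 12% of all tested genes. With the trends removed 5 rose and 1 fell, and without MRL-2 2 fell.

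Acute-phase and secreted defence genes rose in 8 of 15 tested members and fell in 0, with a median log2 fold change of 2.40. Lcn2 rose from 85.8 and 84.8 to 2756 and 3371 CPM (log2 fold change 5.17 ± 0.26, adjusted p 1.35e-09). Serpinb2, a protease inhibitor of activated macrophages, rose from 0.655 and 1.56 to 448 and 339 CPM (log2 fold change 8.52 ± 0.36, adjusted p 2.56e-10). Haptoglobin (Hp), the protease inhibitor Slpi, the complement factor Cfb and Steap4 rose with log2 fold changes of 2.32, 3.05, 4.02 and 3.10. Ptx3 and C3 lay under the 2-fold limit (0.62 and 0.91), and C3 passed it with the trends removed (1.06). The calprotectin gene S100a8, a neutrophil marker, rose from 34.0 and 31.0 to 346 and 523 CPM (log2 fold change 3.74 ± 0.30, adjusted p 2.61e-07), while its partner S100a9 had 0 counts in 5 of the 6 MSC libraries and 0.0610 CPM in MRL-2. In the bone marrow macrophage libraries S100a9 had 6708 to 24424 counts and S100a8 5789 to 18864. Of the other neutrophil markers Camp and Mmp8 rose with log2 fold changes of 4.95 and 2.04, Ngp lay at 0.655 and 0.539 and 0.0610 and 0.258 CPM and was not called (-1.90), and Elane, Mpo, Ltf and Retnlg were at or near 0 in all 6 libraries.

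Interferon-stimulated genes, which TRIF signalling and secreted interferon induce, rose in part. Of 30 tested 13 rose and 0 fell (1, Irf7, fell without MRL-3), with a median log2 fold change of 0.71. Ifit1, which binds foreign RNA, rose from 63.9 and 64.6 to 441 and 446 CPM (log2 fold change 2.79 ± 0.21, adjusted p 1.22e-07), and the antiviral enzyme gene Rsad2 from 18.3 and 19.6 to 119 and 119 CPM (log2 fold change 2.66 ± 0.23, adjusted p 4.05e-07). The RNA sensors Ifih1 and Ddx58 rose with log2 fold changes of 2.34 and 1.59. Isg15 rose with 1.06 ± 0.20, a value that was 0.91 without MRL-3. Irf7, the master regulator of interferon genes, lay at 1914 and 1909 CPM beside untreated and 895 and 1345 CPM beside LPS-treated macrophages, log2 fold change -0.77 ± 0.22, adjusted p 0.0102, with 605 and 604 CPM in the libraries labelled MSC, and it was called lower without MRL-3 (-1.09). The Oas genes, of which Oas1a and Oas1g are close copies and so uncertain, were not called.

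The guanylate-binding proteins and related GTPases, which attack the vacuoles of intracellular microbes, rose in 10 of 16 tested members, and 0 fell. Gbp5 rose from 7.71 and 6.08 to 74.3 and 57.4 CPM (log2 fold change 3.24 ± 0.25, adjusted p 1.55e-07), Gbp3 from 12.6 and 12.5 to 126 and 126 CPM and Gbp2 from 18.8 and 16.4 to 117 and 93.6 CPM. Irgm1 rose from 31.0 and 32.4 to 138 and 91.1 CPM, with a log2 fold change of 1.86 ± 0.26. MRL-3 lay between the 76.1 and 96.5 CPM of the libraries labelled MSC. Gbp genes are close relatives, and how reads that match several of them were counted is not given in the sources used here. Their median log2 fold change was 1.90, and 1.16 with the trends removed, where the number of rises was the same (10).

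Nos2 (ENSMUSG00000020826, GRCm38 chr11:78920787-78960254), the inducible nitric oxide synthase, rose from 1.26 and 0.839 CPM to 938 and 816 CPM (log2 fold change 9.68 ± 0.37, adjusted p 1.13e-10). Slc7a2, the arginine transporter CAT2, rose from 27.4 and 26.0 to 1918 and 1455 CPM (log2 fold change 5.98 ± 0.28, adjusted p 8.64e-10), and Ass1, which rebuilds arginine from citrulline, rose with a log2 fold change of 2.61 ± 0.21. In the libraries labelled MSC Nos2 lay at 2.26 and 1.37 CPM. Ddah2 fell (-2.03) and was the 1 member of 12 tested that did, while 2 fell without MR-1b and 3 without MRL-3.

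Acod1, which diverts the tricarboxylic acid cycle to itaconate, rose from 43.8 and 37.7 to 1255 and 1226 CPM (log2 fold change 4.92 ± 0.24, adjusted p 1.10e-09). It was the 1 gene of 22 tested in the list of itaconate, succinate and the cycle that rose. The cycle's enzyme genes Fh1 (-1.99), Idh3g (-1.39), Idh3b (-1.03), Suclg1 (-1.35), Mdh1 (-1.06) and the succinate dehydrogenase subunit Sdhb (-1.22) fell. Sdhb lay at 353 and 360 CPM in MR-1a and MR-1b and 149 and 157 CPM in MRL-2 and MRL-3. The libraries labelled MSC, at 156 and 140 CPM, lay close to MRL-2 and MRL-3. Sdhb lost its call with the trends removed (-0.66), where Slc25a10, a mitochondrial carrier of succinate, gained one (1.11), so that 2 members rose and 5 fell. Sdha, the catalytic subunit of succinate dehydrogenase, lay at 157 and 162 and 133 and 154 CPM and was not called. The succinate receptor gene Sucnr1 had a count in MRL-3 alone.

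Genes of prostanoid synthesis moved in both directions. Ptgs2, the inducible cyclooxygenase COX-2, rose from 16.4 and 16.1 to 780.2 and 639.8 CPM (log2 fold change 5.45 ± 0.28, adjusted p 2.10e-09). Ptges, the inducible prostaglandin E synthase, rose from 31.5 and 30.4 to 853 and 882 CPM (log2 fold change 4.81 ± 0.24, adjusted p 1.23e-09). Pla2g4a, which releases arachidonic acid, rose with a log2 fold change of 1.67. Ptgs1, the constitutive cyclooxygenase, fell from 25.1 and 23.3 to 8.81 and 8.79 CPM (log2 fold change -1.46 ± 0.21, adjusted p 6.05e-05), and the synthase genes of prostaglandin D2 and thromboxane, Hpgds and Tbxas1, fell with log2 fold changes of -1.61 and -1.29. The receptor gene Ptger2 rose at 1.18, a call lost with the trends removed (0.74).

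Genes of oxidant production and defence split. Cybb, the membrane subunit of the phagocyte NADPH oxidase, rose from 209 and 208 to 1942 and 1739 CPM (log2 fold change 3.14 ± 0.22, adjusted p 4.70e-08), and its partner Cyba fell from 1499 and 1426 to 377 and 536 CPM (log2 fold change -1.68 ± 0.20, adjusted p 1.39e-05), a call that was lost with the trends removed (-0.86). Sod2, the mitochondrial superoxide dismutase, rose from 269 and 265 to 1564 and 1689 CPM (log2 fold change 2.60 ± 0.21, adjusted p 2.23e-07), and Sod1, the cytosolic one, fell from 718 and 731 to 166 and 209.5 CPM (log2 fold change -1.95 ± 0.19, adjusted p 1.47e-06). Slc7a11, the cystine importer, rose from 4.89 and 5.07 to 99.7 and 70.0 CPM (log2 fold change 4.09 ± 0.28, adjusted p 4.83e-08), Prdx5 and Txn1 rose with log2 fold changes of 1.82 and 1.74, and Gpx1 fell with -2.0. Hmox1, a standard target of the oxidant-response factor NRF2, lay at 1396 and 1400.1 and 1385 and 1578 CPM and was not called. Nox4 had no count beside untreated macrophages and 1.13 and 2.20 CPM beside LPS-treated ones (at least 40.5-fold higher), with 0.850 and 1.01 CPM in the libraries labelled MSC. In all 9 of 27 tested rose and 4 fell, against 15.4% and 12% of all tested genes.

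Hif1a, the oxygen-regulated subunit of hypoxia-inducible factor 1, rose from 64.3 and 63.8 to 545 and 496 CPM (log2 fold change 3.02 ± 0.24, adjusted p 1.67e-07), with 106 and 139 CPM in the libraries labelled MSC. Of 21 tested genes of the HIF subunits, oxygen sensors and targets 10 rose and 0 fell. Vegfa, the angiogenic growth factor, rose from 61.0 and 59.8 to 348 and 365 CPM (log2 fold change 2.56 ± 0.21, adjusted p 2.95e-07), and the oxygen sensor Egln3 and the mitophagy receptor Bnip3 rose with log2 fold changes of 1.8 and 2.96. Car9, which is often used as a marker of hypoxia, lay at 5.70 and 4.95 and 4.91 and 4.43 CPM and was not called.

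In glycolysis 8 of 28 tested genes rose and 3 fell, against 15.4% and 12% of all tested genes. With the trends removed 12 rose and 1 fell. Pfkfb3, which makes the activator of phosphofructokinase, rose from 64.8 and 64.1 to 371 and 356 CPM (log2 fold change 2.49 ± 0.21, adjusted p 4.33e-07). The glucose transporter Slc2a1 and hexokinase Hk2 rose with log2 fold changes of 1.25 ± 0.19 and 1.30 ± 0.19, and the lactate transporter Slc16a1 and Pgk1 with 2.77 and 1.73. Aldoc fell from 46.1 and 44.9 to 12.8 and 12.4 CPM (log2 fold change -1.85 ± 0.20, adjusted p 4.52e-06). Ldha, Tpi1 and Slc2a6 lay under the 2-fold limit (0.86, 0.57 and 0.81) and passed it with the trends removed (1.20, 1.08 and 1.36).

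Many nuclear genes of the respiratory chain did not pass the test, and most of those that did were lower. For complex I 20 of 37 tested subunits fell and 0 rose, with a median log2 fold change of -1.13, and with the trends removed 14 fell and 1 rose (median -0.77). For complexes III, IV and V 13 of 34 fell and 3 rose. Ndufs7 lay at 281 and 284 CPM in MR-1a and MR-1b and 44.8 and 83.1 CPM in MRL-2 and MRL-3 (log2 fold change -2.14 ± 0.26, adjusted p 1.27e-05), and at 70.9 and 83.6 CPM in the libraries labelled MSC. Cox4i1 lay at 1055 and 1072, 284 and 480.0 and 296 and 327 CPM in the same order, and its call was lost with the trends removed (-0.70). For both genes MRL-2 and MRL-3 lay closer to the libraries labelled MSC than MR-1a and MR-1b did. MR-1a and MR-1b also stood apart in GC content, and the cause of these falls was not tested. Transcripts of mitochondrial DNA went the other way, with 6 of 13 called higher, a count that fell to 3 with the trends removed. mt-Co1 lay at 439 and 439 CPM in MR-1a and MR-1b, 1946 and 1514 CPM in MRL-2 and MRL-3 (log2 fold change 1.98 ± 0.24, adjusted p 1.17e-05) and 1184 and 1521 CPM in the libraries labelled MSC. The mitochondrial and ribosomal RNA shares of the libraries moved the same way, and their part in these values was not tested.

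Of genes of mitochondrial fusion, fission, import and transfer 4 of 19 tested rose and 4 fell, against 15.4% and 12% of all tested genes. With the trends removed 3 rose and 2 fell, and with each library left out in turn 2 to 4 rose and 1 to 4 fell, the fewest without MRL-2. Gja1, the gap junction protein connexin 43, rose from 75.1 and 78.6 to 377 and 363 CPM (log2 fold change 2.27 ± 0.20, adjusted p 7.02e-07). Cd38, an ectoenzyme that consumes NAD, rose from 25.4 and 24.9 to 396 and 467 CPM (log2 fold change 4.10 ± 0.23, adjusted p 5.26e-09). Rhot1, which encodes the mitochondrial motor adaptor Miro1, the import receptor Tomm20 and Mfn2 were not called (log2 fold changes -0.28, 0.38 and 0.33). Tnfaip2, needed for membrane nanotubes, lay under the 2-fold limit (0.69) and passed it with the trends removed (1.10).

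Inflammasome genes rose in 6 of 12 tested members and fell in 3. Nlrp3 rose from 63.2 and 61.2 to 211 and 180.0 CPM (log2 fold change 1.65 ± 0.20, adjusted p 1.40e-05), and Casp4, the intracellular LPS sensor, from 6.68 and 6.92 to 28.5 and 23.4 CPM (log2 fold change 1.93 ± 0.26, adjusted p 3.22e-05). Casp1, Nlrc4 and Mefv rose with log2 fold changes of 1.89, 1.92 and 2.15. Pycard, the adaptor ASC that joins sensors to caspase 1, fell from 138 and 141 to 30.7 and 26.7 CPM (log2 fold change -2.28 ± 0.18, adjusted p 1.77e-07).

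Antigen presentation genes moved in both directions. The MHC class II chaperone Cd74 fell from 317 and 311 to 70.7 and 81.4 CPM (log2 fold change -2.05 ± 0.20, adjusted p 1.73e-06), and H2-DMa, H2-DMb1 and H2-Eb1 fell with log2 fold changes of -2.29, -2.68 and -1.61. The inhibitory ligand PD-L1 (Cd274) rose from 12.4 and 13.3 to 307 and 213 CPM (log2 fold change 4.34 ± 0.27, adjusted p 1.33e-08), and the costimulatory receptor Cd40 rose from 24.8 and 21.6 to 61.2 and 73.4 CPM (log2 fold change 1.53 ± 0.22, adjusted p 6.61e-05). Cd86 lay at 12.7 and 16.5 and 15.3 and 12.3 CPM and was not called. In this list 6 of 14 tested rose and 4 fell, and its median of -0.24 became 0.03 without MRL-3.

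In the list of alternative activation markers 7 of 11 tested members fell and 0 rose, with a median log2 fold change of -2.46. Arg1 (arginase 1), also used as such a marker but counted in the arginine list, went the other way. It rose from 3.88 and 4.77 CPM in MR-1a and MR-1b to 201 and 208 CPM in MRL-2 and MRL-3 (log2 fold change 5.58 ± 0.29). Besides Mrc1, Trem2 and Mgl2, the lectin Clec10a fell from 156 and 155 to 5.25 and 6.52 CPM (log2 fold change -4.72 ± 0.20, adjusted p 2.53e-10) and the folate receptor Folr2 from 41.8 and 43.0 to 8.29 and 7.04 CPM (log2 fold change -2.46 ± 0.21, adjusted p 3.55e-07). Stab1 and F13a1 fell with log2 fold changes of -1.53 and -2.94. Cd163, another scavenger receptor, lay at 2.45 and 2.43 and 2.47 and 2.39 CPM and was not called, and Retnla and Chil3 were at or near 0 in all libraries. The Cd209 genes are near copies of each other and are uncertain.

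The macrophage marker list moved with these genes. Of 20 tested 10 fell and 3 rose, with a median log2 fold change of -1.12. The complement genes C1qa, C1qb and C1qc fell from 1640.4 and 1609, 3636 and 3659.7 and 1409 and 1422 CPM to 201 and 281, 222 and 331 and 139 and 151 CPM, and Cd68 fell from 750.1 and 744 to 73.1 and 89.3 CPM (log2 fold change -3.20 ± 0.19, adjusted p 6.42e-09). Adgre1, the macrophage marker F4/80, rose from 343 and 351 to 1561 and 1422 CPM (log2 fold change 2.11 ± 0.21, adjusted p 1.97e-06), and so did Itgam (1.21) and Cd14. Spi1, the myeloid transcription factor PU.1, lay at 320.0 and 321 and 215 and 249 CPM and was not called (-0.47). Its defining markers therefore moved both ways between the groups, and the part of macrophage RNA in the other results was not tested.

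In the list of matrix metalloproteinases and their inhibitors 10 of 14 tested members rose, the inhibitors Timp1 and Timp3 among them, and 1, the inhibitor Timp2, fell, with a median log2 fold change of 1.81. Mmp3 rose from 26.2 and 25.6 to 2198 and 2146 CPM (log2 fold change 6.39 ± 0.26, adjusted p 2.25e-10), with 21.5 and 20.5 CPM in the libraries labelled MSC. The collagenase Mmp13 rose from 158 and 148 to 1666 and 1422 CPM (log2 fold change 3.33 ± 0.22, adjusted p 3.22e-08) and the gelatinase Mmp9 from 43.5 and 43.1 to 711 and 749 CPM (log2 fold change 4.07 ± 0.23, adjusted p 5.45e-09). Mmp14 and the aggrecanase Adamts4 rose with log2 fold changes of 1.68 and 3.94. Among the inhibitors Timp1 rose from 1481 and 1499 to 2856 and 4293 CPM (log2 fold change 1.26 ± 0.24, adjusted p 6.44e-04, and 0.95 without MRL-3), Timp3 rose (1.93) and Timp2 fell (-1.51).

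Stromal genes did not move as 1 group. Of 16 tested stromal markers 5 rose and 2 fell, against 15.4% and 12% of all tested genes. With the trends removed 4 rose and 1 fell. Decorin (Dcn) and lumican (Lum), small proteoglycans of fibroblasts, rose from 2.19 and 2.40 and 0.176 and 0.180 CPM to 207 and 186 and 24.1 and 21.4 CPM (log2 fold change 6.42 ± 0.27, adjusted p 2.53e-10 for Dcn), and the libraries labelled MSC held 7.19 and 8.21 CPM of Dcn. Col3a1 rose from 471 and 492 to 1421 and 1377 CPM (log2 fold change 1.54 ± 0.20, adjusted p 2.16e-05), and Col1a1, at 484 and 478 and 784 and 804 CPM, was not called (0.72). The 3 chains of collagen VI fell together, Col6a1 with a log2 fold change of -1.42, Col6a2 with -1.84 and Col6a3 with -1.20. Without MRL-2, 1 stromal marker and 1 MSC surface gene fell. Of the MSC surface list 5 of 13 tested rose and 2 fell, against the same shares of all tested genes. With the trends removed 2 rose and 2 fell. Nt5e, the MSC marker CD73, rose from 6.98 and 7.61 to 53.7 and 55.8 CPM (log2 fold change 2.91 ± 0.23, adjusted p 2.39e-07), Vcam1 rose (2.07), and Ly6a fell from 543 and 521 to 118 and 187 CPM (log2 fold change -1.81 ± 0.23, adjusted p 1.80e-05). Cd44 and Pdgfra, called higher at 1.25 and 1.15, and the CD45 gene Ptprc, at 1.22, lost their calls with the trends removed (0.60, 0.77 and 0.21).

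Of 19 tested genes of bone formation 2 rose and 5 fell, against 15.4% and 12% of all tested genes, and with the trends removed 3 rose and 2 fell, so that the list's median went from -0.21 to 0.17. Runx2, the master transcription factor of osteoblasts, lay at 10.9 and 10.4 CPM beside untreated and 14.3 and 12.6 CPM beside LPS-treated macrophages (log2 fold change 0.34 ± 0.25, adjusted p 0.291). Alpl, alkaline phosphatase, lay at 33.3 and 32.7 and 22 and 21.6 CPM and Sp7 (osterix) at 6.33 and 6.05 and 4.33 and 6.43 CPM, and neither was called. Spp1 rose from 702 and 689.5 to 2916 and 2414 CPM (log2 fold change 1.94 ± 0.21, adjusted p 5.86e-06). Bmp4 fell from 4.99 and 5.96 to 0.732 and 0.355 CPM (log2 fold change -3.31 ± 0.42, adjusted p 1.96e-05), and the mineral-matrix gene Ibsp from 2.17 and 1.89 to 0.335 and 0.323 CPM (log2 fold change -2.62 ± 0.63, adjusted p 0.00363). Osteocalcin (Bglap) lay at 2.77 and 2.67 CPM and 0.274 and 0.775 CPM, and its call at a log2 fold change of -2.38 was lost with the trends removed (-1.56, adjusted p 0.108).

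In the RANKL axis, through which stromal cells drive osteoclast formation, the ligand gene Tnfsf11 rose from 1.44 and 1.56 to 15.0 and 18.0 CPM (log2 fold change 3.47 ± 0.52, adjusted p 1.00e-04). Its decoy receptor osteoprotegerin (Tnfrsf11b) rose from 8.34 and 6.05 to 21.8 and 18.3 CPM (log2 fold change 1.46 ± 0.29, adjusted p 8.48e-04), and 0.93 with the trends removed was under the 2-fold limit. The receptor RANK (Tnfrsf11a) and the osteoclast factor Nfatc1 were not called (0.50 and -0.18), nor was cathepsin K (Ctsk, -0.41). Acp5, the osteoclast phosphatase, lay under the limit at 0.91 and passed it with the trends removed (1.55). In all 5 of 13 tested rose and 1 fell.

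Adipocyte genes fell in 7 of 11 tested members and rose in 0, with a median log2 fold change of -1.43, and with the trends removed 1 rose and 7 fell. Without MR-1a or MRL-2, 1 rose. Pparg, the master regulator of fat cells, fell from 22.2 and 20.7 to 7.07 and 5.85 CPM (log2 fold change -1.73 ± 0.23, adjusted p 3.18e-05), and Cebpa from 122 and 128 to 17.8 and 21.5 CPM (log2 fold change -2.67 ± 0.22, adjusted p 3.25e-07). Lipoprotein lipase (Lpl) and the fatty-acid carrier Fabp4 fell with log2 fold changes of -1.85 ± 0.18 and -1.65 ± 0.19. Most of these genes are also expressed by macrophages. Adiponectin (Adipoq), which is not, lay at 19.9 and 19.1 and 8.81 and 11.1 CPM and was not called (-0.97), and leptin had no count.

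In the cell cycle 2 of 28 tested genes rose and 4 fell, against 15.4% and 12% of all tested genes, and with the trends removed 1 rose and 9 fell. The replicative helicase gene Mcm5 fell from 158 and 150.4 to 33.1 and 37.8 CPM (log2 fold change -2.12 ± 0.18, adjusted p 3.38e-07), and the proliferation marker Mki67 lay at 128 and 128 and 105 and 87.2 CPM and was not called. Of the BCL2 family and death receptors 6 of 19 rose and 3 fell. The receptor genes Fas and Tnfrsf1b rose with log2 fold changes of 2.54 and 3.03, whereas Tnfrsf1a, the other TNF receptor, fell with -1.38, a call lost with the trends removed (-0.83). The 3 Bcl2a1 copies, which share reads and are uncertain, were all called higher. Of sterol genes 7 of 22 rose and 1 fell, and without MRL-2 0 fell. Those that rose included the cholesterol exporter Abca1 (47.2 and 47.8 to 231 and 197 CPM, log2 fold change 2.17 ± 0.21, adjusted p 1.41e-06) and Ch25h (2.12), which makes an antiviral oxysterol. Of stress-response genes 4 of 15 rose and 0 fell, and without MRL-2 or MRL-3 the rises were 3 and 2, so that the chaperone gene Hspa5 (1.18) lost its call without MRL-2 (0.97). Hspa5 also lost it with the trends removed (0.79). In MRL-3 it lay at 1352 CPM, between the 1272 and 1356 CPM of the libraries labelled MSC.

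**Figure D5:**
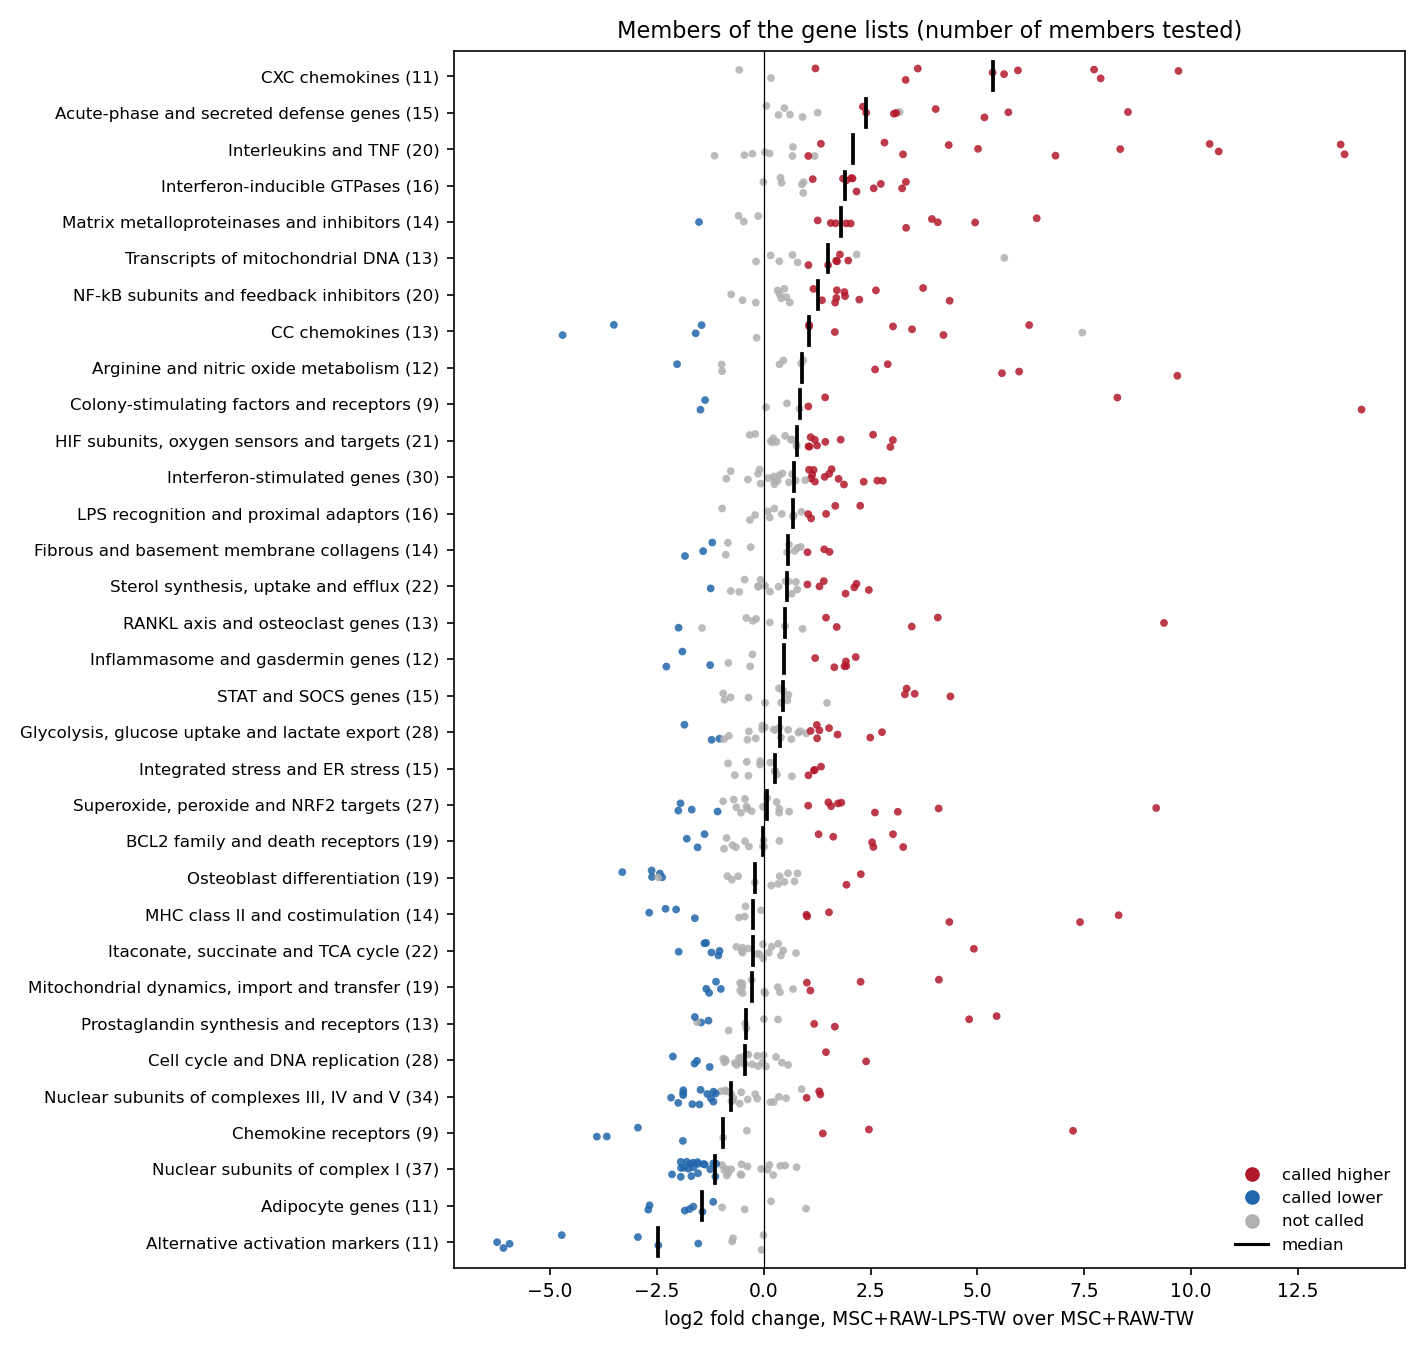
Gene lists ordered by their median log2 fold change, with each tested member as a point and the median as a bar, for LPS-treated over untreated macrophages. CXC chemokines have the highest median of the pathway lists with more than 1 tested gene (5.36), and markers of alternative activation the lowest (-2.46).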

How the data were processed

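MSC libraries were prepared by the study with poly(A) selection and a strand-specific kit and sequenced as paired 150-base reads. Per the methods and processing notes, the authors trimmed reads with Trim Galore 0.6.7, aligned them to GRCm38 with HISAT2 2.1.0 and counted them with featureCounts 2.0.1. The strand setting and the treatment of reads that match several genes are not given in the sources used here. The values deposited by the authors are raw counts per gene, which were used as they stand.

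Counts were tested with edgeR 4.0.16 (R 4.3.3) by the quasi-likelihood test after trimmed-mean scaling and filterByExpr, over 5 samples: 2 MSC, the sum of both MSC+RAW-TW libraries and 2 MSC+RAW-LPS-TW, with 2 residual degrees of freedom before shrinkage. A gene was called at a fold of 2 or more when its p, adjusted over all genes tested by the Benjamini-Hochberg method, was not above 0.05. The members, lists and named genes were chosen with earlier results of these data known. The 34 pathway lists and 13 marker lists hold 718 symbols, of which 3 (Il36g, Park2 and H2-Ea) had no match. Genes were named by the rules given in the results. In simulated data of 20499 genes for this comparison, 48.1% of genes changed 2-fold, 81.1% of those changed 4-fold and 95.6% of those changed 8-fold were called. The 200 changed genes left out those of lowest mean CPM, and no trend over GC content or transcript length was simulated. These shares therefore do not cover such genes or trends. Of the unchanged genes 8 were called.

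Alternatives were DESeq2 1.42.0, its size factors in edgeR, other filters and limits, both MSC+RAW-TW libraries as replicates, the 2 groups alone, ribosomal and mitochondrial genes left out, and each library left out. Removal of smooth trends over GC content and transcript length, and a block on 2 runs of library identifiers in the column names, were chosen after the data were seen. Columns of the bone marrow macrophage table were used for marker levels alone. Some listed genes are not reported here.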

Additional observations from a re-analysis of the deposited data

How the results depend on the processing

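No paired analysis was possible by replicate number because the columns could not be tied to the sample titles (1 and 2 in each group). Both MSC+RAW-TW columns carry number 1, and the MSC+RAW-LPS-TW columns 2 and 3. Across normalization, tool, filter, replicate handling and the trends removed, called genes numbered 4524 to 6718, and with each library left out 5373 to 6481 (2971 to 3642 higher, 2298 to 2839 lower, most without MRL-3). The limits mattered more. With adjusted p alone 8234 genes passed, 4363 higher and 3871 lower. With a fold of at least 2 alone 9749 genes passed, 5779 higher and 3970 lower, and with a fold of at least 4 and the same adjusted p 2349 passed, 1606 higher and 743 lower. Both limits change the count by their construction. DESeq2 called 5563 genes (3318 higher, 2245 lower). The column names also hold a library identifier in 2 runs of numbers, whose meaning is not given in the sources used here. Each of these runs holds a column from each compared group. With these runs as a block, not a replicate number, and both MSC+RAW-TW libraries as replicates, 6629 were called, against 6718 with no block. Of 121 named genes called, 106 kept their call in all 15 settings, 2 (mt-Co1 and mt-Nd1) kept it in those that tested them, 13 lost it in at least 1, 16 uncalled genes gained it in at least 1, and none changed sign while called. Depth sets the floor of 3 counts at 0.0411 CPM over MSC+RAW-TW, the deepest sample once summed. Of the genes called higher 731 had no count there, 679 of them had a count in both MSC libraries, and 30.5% of them were protein-coding.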

Other observations

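A set of genes called higher beside LPS-treated macrophages had no count beside untreated ones. These 731 genes had a median level of 0.60 CPM in MSC+RAW-LPS-TW, and 679 of them had a count in both libraries labelled MSC. In the other direction 90 genes called lower had no count in MSC+RAW-LPS-TW. Of the 20499 tested genes 16025 (78.2%) had no overlap between the 2 MSC+RAW-TW and the 2 MSC+RAW-LPS-TW libraries, so absence of overlap is common here and says little of a single gene. Genes called higher had a median GC content of 45.2% and a median transcript length of 3903 bases among protein-coding genes, against 53.4% and 2539 bases for those called lower and 49.8% and 3341 bases for all.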
